A study of Mus musculus with 12 samples.

Results

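Young satellite cells with a high level of a Pax7 reporter were compared with young satellite cells in which the reporter was low. The members are all probe sets with exactly 1 gene symbol, 14184 of the 18007 in the table, and they stood for 13076 genes once the probe set with the highest mean over the young arrays had been taken for each gene. The comparison used 6 of the 12 arrays, 3 labelled Young Pax7High and 3 labelled Young Pax7Low. All 4 groups of the series came from mice of the genotype TgPax7nGFP, 6 weeks old in the young groups and 28 months old in the old groups by the labels (the text of the study gives another range for the old mice), with no treatment listed. The 3 Old Pax7High and 3 Old Pax7Low arrays enter here only where a difference was set against age. Limb muscles had been digested and cells sorted on size, granularity and nuclear GFP. No antibody against other cell types was named for this sort, and the reporter follows the Pax7 promoter and so marks how active that gene had been, not a cell state. The sample titles name the cells of all 4 groups quiescent satellite cells, and the paper describes cells with a low Pax7 level as quiescent too. The labels do not state whether each sample was taken from its own mouse, so the p-values given here rest on the spread among samples, which may be technical. The number of arrays limits the precision.

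Satellite cells lie between the muscle fibre and its basement membrane and are the stem cells of skeletal muscle. The paired-box factor Pax7 marks them, the bHLH factors Myf5 and MyoD commit them to the muscle lineage, and myogenin, encoded by Myog, acts late, when committed cells leave the cell cycle, fuse and build the contractile apparatus. Notch signalling is known to hold them in the stem cell state, and a high Pax7 level has been associated with cells less primed for commitment.

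In young mice, the widest differences between the fractions were those of single genes of commitment, fusion and contraction that were lower in Pax7High cells, while most members of these lists were not called. Myog was 85.0-fold lower, the fusion gene Mymk 68.4-fold, cardiac actin (Actc1) 49.3-fold and the cell cycle inhibitor Cdkn1c 19.8-fold. On the Pax7High arrays Myog ranked no higher than the 35.7th percentile of genes, and whether so low a level lay above background was not assessed, so that these folds are ratios of RMA values only. Genes higher in Pax7High cells included the chemokine Cxcl3 (7.0-fold), the matrix proteins Ccn2 (4.2-fold) and Timp1 (4.17-fold) and the oncostatin M receptor Osmr (3.69-fold). The genes that identify satellite cells, Pax7 included, did not pass the test in either direction.

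At an adjusted p under 0.05 (limma on log2 RMA values, Benjamini-Hochberg over all genes), 248 of 13076 genes were called, or 1.9%. Of these, 126 were higher in Pax7High cells (0.964%) and 122 lower (0.933%). The counts of called list members given below are to be read against these shares. At an unadjusted p under 0.05, 987 genes were higher and 899 lower. The median difference over all genes was 0.02 on the log2 scale, and the 5th and 95th percentiles of the differences lay at -0.58 and 0.60. The 3 arrays of one fraction lay wholly above those of the other for 1332 genes higher in Pax7High (10.2%) and 1180 lower (9.02%), among them all 248 called genes. The widest differences lay among the genes called lower. Differences wider than 2 were found for 21 genes called lower and 7 called higher, and the widest was -6.41 among the former and 2.81 among the latter.

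**Figure D1:**
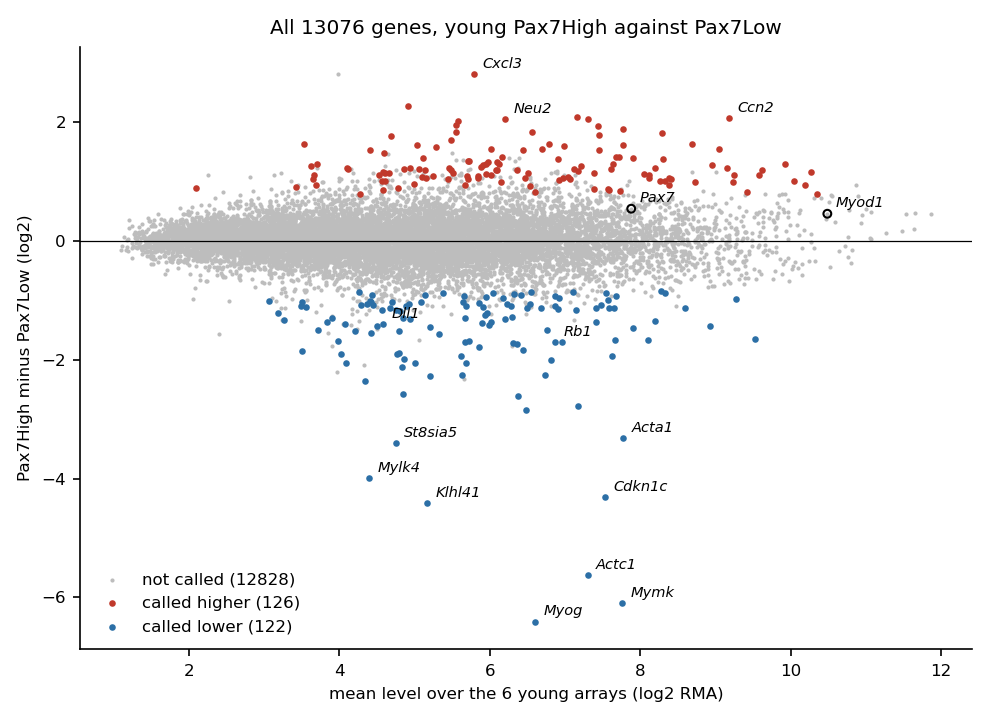
Each point is 1 of 13076 genes, with its mean level over the 6 young arrays (log2 RMA) on the horizontal axis and the Pax7High minus Pax7Low difference (log2) on the vertical axis; red points were called higher (126), blue points called lower (122), grey points not called, and open circles mark Pax7 and Myod1, which were not called. The widest differences, Myog at -6.41, Mymk at -6.10 and Actc1 at -5.62, lie below the line, and the widest called difference above it is Cxcl3 at 2.81.

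The arrays themselves separated by fraction. On the first principal component of the young arrays, with 39.5% of the variance, the Pax7High arrays lay from -23.6 to -21.7 and the Pax7Low arrays from 10.6 to 29.5, where Pax7Low replicate 1 was nearest to the Pax7High arrays. Pearson correlations between arrays over all genes ran from 0.968 to 0.979 within a fraction and from 0.950 to 0.967 between fractions. Without Pax7Low replicate 1, 129 genes were called higher and 179 lower. Calls fell to 28 higher and 28 lower without Pax7Low replicate 2, to 34 and 29 without Pax7Low replicate 3, to 37 and 47 without Pax7High replicate 2 and to 56 and 57 without Pax7High replicate 3, and without Pax7High replicate 1 they were 133 and 58. The naming rule gave 62 called genes. Of these, 23 were called without each array in turn (Myog, Mymk, Actc1, Klhl41, Cdkn1c, Mylk4, St8sia5, Acta1, Chchd10, Atp2a1, Spg21, Rb1, Cdk2, Cxcl3, Ccn2, Timp1, Neu2, Tmtc2, Thbd, Osmr, Slc7a8, Igfbp5 and Thbs1), and the other 39 kept their sign and lost the call without at least 1 array.

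The promoters of 3 muscle genes that were lower in Pax7High cells, Myog, Actc1 and Acta1, are shown, since myogenin and its relatives act through E-boxes (CANNTG) and the actins are classical targets of serum response factor, which acts through the CArG box. The sequences are those of RefSeq (GRCm38.p6), from 250 bases before to 50 after the gene start, read 5′ to 3′ on the strand of the gene, and 10264 of the 13076 genes had one. Capitals mark any E-box, the CArG box, TGGGAA (core of the RBPJ site, through which Notch acts) and CATTCC (TEAD site).
Myog, chr1:134289754-134290053, plus strand: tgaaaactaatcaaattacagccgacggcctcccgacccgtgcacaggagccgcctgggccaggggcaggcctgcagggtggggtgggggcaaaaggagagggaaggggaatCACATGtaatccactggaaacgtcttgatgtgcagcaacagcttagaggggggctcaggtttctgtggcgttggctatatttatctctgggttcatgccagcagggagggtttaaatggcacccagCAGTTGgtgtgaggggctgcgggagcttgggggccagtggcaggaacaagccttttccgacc
Actc1, chr2:114052826-114053125, minus strand: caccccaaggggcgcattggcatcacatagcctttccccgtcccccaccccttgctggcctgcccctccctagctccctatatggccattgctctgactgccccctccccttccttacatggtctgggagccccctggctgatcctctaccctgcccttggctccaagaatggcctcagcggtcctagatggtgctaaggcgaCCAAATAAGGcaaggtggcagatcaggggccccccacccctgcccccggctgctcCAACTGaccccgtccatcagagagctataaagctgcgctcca
Acta1, chr8:123894726-123895025, minus strand: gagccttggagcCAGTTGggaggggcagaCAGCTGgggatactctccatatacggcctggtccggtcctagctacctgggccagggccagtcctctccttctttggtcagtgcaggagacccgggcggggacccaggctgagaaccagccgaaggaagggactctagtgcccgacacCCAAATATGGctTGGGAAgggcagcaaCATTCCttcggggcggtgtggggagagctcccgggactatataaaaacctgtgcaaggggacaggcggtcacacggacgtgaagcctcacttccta

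In the Myog promoter 2 E-boxes were found, with their first bases 138 and 12 bases before the start. The Actc1 promoter held a CArG box 47 bases before the start and the Acta1 promoter one at 73 bases. A CArG box stood in 1.5% of all 10264 promoters, in 4 of 98 promoters of genes called lower (4.08%) and in 2 of 94 of genes called higher (2.13%). Actc1 and Acta1 are 2 of these 4. The CArG box and CANNTG were added after the sequences were seen, so their shares, which count the printed promoters, lend no support. Any E-box stood in 69.5% of all promoters, in 78.6% of those called lower and in 72.3% of those called higher. The E-box CAGCTG alone, which is contained in CANNTG, stood in 18.4% of all promoters, 29.6% of those called lower and 21.3% of those called higher. For the E-box CAGGTG the shares were 20.7%, 27.6% and 20.2%, for the MEF2 core TATTTNTA 4.76%, 6.12% and 3.19%, for TGGGAA 27.1%, 25.5% and 28.7%, and for CATTCC 15.1%, 19.4% and 24.5%. Both strands were searched. A match is a description of the letters, and none of these shares was tested.

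Pax7 was taken first, because its reporter defined the sort. On the Pax7High arrays its level was 8.15, 7.95 and 8.36, and on the Pax7Low arrays 7.97, 7.04 and 7.81. Pax7Low replicate 1 lay above Pax7High replicate 2, so that the fractions overlapped. The difference was 0.55 (SE 0.25, adjusted p = 0.36), 1.46-fold, and did not pass the test. Of the 9 satellite cell markers 8 were measured, none was called, and their median difference was 0.55 against 0.02 over all genes. The heparan sulphate proteoglycan Sdc4 (0.79, adjusted p = 0.0723) and the adhesion molecule Vcam1 (0.66, adjusted p = 0.0966) came nearest to the threshold. For each of them the lowest Pax7High array lay above the highest Pax7Low array, as for 4 of the 8 markers in all, against 10.2% of all genes. Calcr, the calcitonin receptor (0.21, adjusted p = 0.799), M-cadherin (Cdh15, -0.14, adjusted p = 0.874) and integrin alpha 7 (Itga7, -0.06, adjusted p = 0.933) did not pass either. The mean level of the 8 markers was between 8.17 and 8.48 on the Pax7High arrays and between 7.62 and 8.09 on the Pax7Low arrays. Pax7 itself ranked between the 88.6th and the 96.3rd percentile of genes on each array, and RMA values carry no detection call.

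The bHLH factors that act at successive steps of commitment behaved differently from one another. Myf5, the earliest of them, was at 8.81, 8.73 and 9.25 in Pax7High and 8.64, 7.82 and 8.67 in Pax7Low cells, with no overlap. Its difference of 0.55 (SE 0.26, adjusted p = 0.365) did not pass. Myod1, the determination factor, was at 10.81, 10.70 and 10.65 against 10.20, 10.49 and 10.08, likewise with no overlap. Its difference of 0.46 (SE 0.19, adjusted p = 0.286) did not pass either. Myog stood at 3.84, 3.50 and 2.87 on the Pax7High arrays and at 9.0, 10.18 and 10.26 on the Pax7Low arrays. Every Pax7Low array exceeded every Pax7High array by more than 5 on the log2 scale. The fitted difference was -6.41 (SE 0.34, adjusted p = 1.34e-05), the widest of all genes.

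Of 26 measured members of the list of myogenic regulatory factors and partners, 1 was called higher and 3 lower, and the median difference of 0.00 was near that of all genes. Besides Myog, the homeobox gene Six4 was lower (-1.89, SE 0.35, adjusted p = 0.0226), as was Tcf12, which encodes an E-protein partner of MyoD (-1.09, SE 0.22, adjusted p = 0.034). The member called higher was Msc, musculin, a bHLH repressor of the myogenic factors, at 10.19, 10.09 and 10.38 against 9.34, 8.63 and 9.11 (1.19, SE 0.22, adjusted p = 0.0206). Six4, Tcf12 and Msc were each called in only 1 of the 6 fits that left out an array, that without Pax7Low replicate 1, and in the others the adjusted p reached 0.102, 0.147 and 0.0908 without Pax7Low replicate 2. Pax3, the paralogue of Pax7, did not pass the test (0.07, adjusted p = 0.922).

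Fusion of myoblasts requires the membrane proteins myomaker (Mymk) and myomixer (Mymx). Mymk was at 4.40, 5.33 and 4.41 in Pax7High and at 9.99, 11.38 and 11.07 in Pax7Low cells. The fractions were far apart, with a difference of -6.10 (SE 0.36, adjusted p = 1.68e-05). Mymx was at 3.28, 2.99 and 3.36 against 3.69, 4.65 and 4.53, likewise without overlap, but its difference of -1.08 (SE 0.26, adjusted p = 0.0664) did not pass. Of 16 measured fusion genes, 3 were called lower, against 0.933% of all genes, and none higher, with a median of 0.11. The other called members were the adhesion molecule Jam3 (-1.73, SE 0.26, adjusted p = 0.00896) and Elmo1, an activator of Rac (-1.41, SE 0.30, adjusted p = 0.0393). Jam3 lost the call without Pax7Low replicate 2 (adjusted p = 0.0544) and without Pax7Low replicate 3, and Elmo1 without each array but Pax7Low replicate 1 (adjusted p up to 0.157).

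Contractile genes were lower in Pax7High cells where they were called. Actc1, the actin of the heart and of developing muscle, was at 4.41, 5.19 and 3.88 against 8.91, 10.79 and 10.64, a difference of -5.62 (SE 0.46, adjusted p = 0.000245). Acta1, the skeletal muscle actin, was at 5.92, 6.65 and 5.78 against 8.53, 10.02 and 9.74 (-3.31, SE 0.36, adjusted p = 0.00138). For both, Pax7Low replicate 1 was the lowest of its fraction and still above every Pax7High array. The actins are alike in sequence, and how much signal their probe sets share was not assessed. Troponin T2 (Tnnt2), the form of embryonic and cardiac muscle, differed by -2.58 (SE 0.39, adjusted p = 0.00896) and titin (Ttn) by -1.10 (SE 0.20, adjusted p = 0.0189). Tnnt2 lost its call without Pax7Low replicate 3 (adjusted p = 0.0517), and Ttn without Pax7High replicates 2 and 3 and Pax7Low replicates 2 and 3 (adjusted p up to 0.0922).

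Counted over whole lists, 3 of 19 early sarcomere genes were called lower and none higher, and 15 had a difference below 0, with a median of -0.50. Of 14 genes of the mature fibre, 2 were called lower (Acta1 and Atp2a1, the calcium pump of the sarcoplasmic reticulum, -2.78, SE 0.28, adjusted p = 0.000852), 11 had a difference below 0 and the median was -0.17. Among all genes 46.9% had a difference below 0. Of 10 genes of the acetylcholine receptor and synapse 1 was called, the receptor subunit Chrna1, at 6.98, 7.06 and 7.47 against 8.05, 8.88 and 8.99 (-1.47, SE 0.26, adjusted p = 0.0194). Chrna1 was called without Pax7High replicate 3 and without Pax7Low replicate 1 and not without the others (adjusted p up to 0.0973). The mean level of the 14 fibre genes was 4.77 to 4.86 on the Pax7High arrays and 5.14 to 5.49 on the Pax7Low arrays. In such bulk samples, fewer cells of a type and less RNA per cell cannot be told apart.

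**Figure D2:**
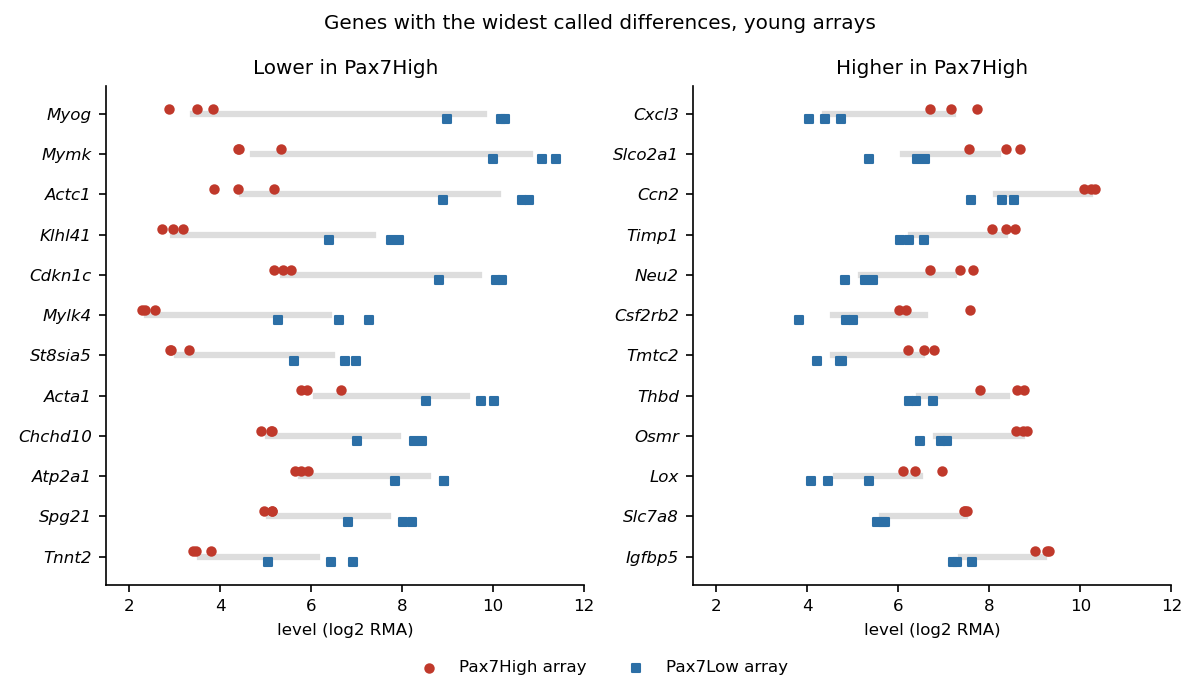
Levels (log2 RMA, horizontal axis) of the 12 genes with the widest called differences in each direction, lower in Pax7High on the left and higher on the right. Predicted genes, clone names and small RNAs were left out. Red circles are the 3 Pax7High arrays, blue squares the 3 Pax7Low arrays, and the grey bar joins the group means. For none of these genes do the fractions overlap, and the Pax7Low arrays of Myog reach from 9.0 to 10.26 while its Pax7High arrays stay between 2.87 and 3.84.

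Several other genes were lower by more than 2 on the log2 scale. Klhl41, a kelch protein of the sarcomere, was at 3.19, 2.96 and 2.73 against 6.39, 7.76 and 7.94 (-4.41, SE 0.35, adjusted p = 0.000213). Mylk4, of the myosin light chain kinase family, was at 2.57, 2.28 and 2.34 against 5.28, 7.26 and 6.62 (-3.99, SE 0.39, adjusted p = 0.00083). St8sia5, a sialyltransferase, was at 3.32, 2.91 and 2.91 against 5.62, 6.99 and 6.75 (-3.40, SE 0.32, adjusted p = 0.000723). For all 3, Pax7Low replicate 1 was again the lowest Pax7Low array. Chchd10, a protein of mitochondria, differed by -2.85 (SE 0.32, adjusted p = 0.00175), and Spg21, which encodes maspardin, by -2.60 (SE 0.32, adjusted p = 0.00263).

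Genes that restrain the cell cycle were lower in Pax7High cells where called, and genes that drive it were split. Cdkn1c, the inhibitor p57 of cyclin-dependent kinases, which accompanies exit from the cycle in muscle, was at 5.37, 5.56 and 5.20 against 8.80, 10.06 and 10.20 (-4.31, SE 0.32, adjusted p = 0.000158). The retinoblastoma gene Rb1 was at 5.95, 5.85 and 6.26 against 7.24, 7.68 and 8.25 (-1.70, SE 0.26, adjusted p = 0.009). Neither gene overlapped between the fractions, and both were called without each array in turn. Ccng2 (-1.22, adjusted p = 0.0272) and the antiproliferative gene Tob1 (-0.85, adjusted p = 0.0344) completed the 4 of 16 measured inhibitors called lower. None was called higher, 13 had a difference below 0, and the median was -0.45. Among all genes 0.933% were called lower and 46.9% had a difference below 0. Ccng2 lost the call without 4 arrays, Pax7High replicates 1 and 2 and Pax7Low replicates 2 and 3 (adjusted p up to 0.108), and Tob1 without any 1 of the 6 (up to 0.124). Cdkn1b, the inhibitor p27, did not pass (-0.44, adjusted p = 0.284).

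Of 43 measured genes of the cell cycle, 1 was called higher and 3 lower, with a median of 0.17. Ccna2, cyclin A2, was at 5.97, 6.99 and 6.72 against 5.33, 5.39 and 5.10, higher by 1.29 (SE 0.26, adjusted p = 0.0302). Cdk2, the kinase that cyclin A2 binds, was at 4.31, 4.46 and 4.86 against 6.09, 6.01 and 6.23, lower (-1.57, SE 0.20, adjusted p = 0.00412), and was called without each array in turn. The atypical E2F repressor E2f8 (-1.90, adjusted p = 0.0272) and cyclin D3 (Ccnd3, -0.95, adjusted p = 0.0407) were lower as well. Ccna2, E2f8 and Ccnd3 were each called in 1 of the 6 fits that left out an array, without Pax7High replicate 1 for Ccna2 and without Pax7Low replicate 1 for the others, and the adjusted p otherwise reached 0.13, 0.118 and 0.174. The proliferation marker Mki67 did not pass (0.50, adjusted p = 0.365).

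Among genes tied to the stem state and quiescence, 36 were measured, none was called higher, and 3 were called lower, namely Rb1, Tob1 and the SOX factor Sox8 (-1.03, SE 0.20, adjusted p = 0.0293, not called without any 1 of Pax7High replicates 2 and 3 or the Pax7Low arrays). Their median difference was 0.10. Cd34 was at 8.02, 7.88 and 8.03 against 7.01, 7.52 and 7.20, without overlap, and its difference of 0.73 (SE 0.20, adjusted p = 0.098) did not pass. Spry1, a feedback inhibitor of FGF signalling needed for the return to quiescence, showed 0.16 (adjusted p = 0.833). Arrays of both fractions were interleaved for Spry1. The receptors Met (0.31, adjusted p = 0.611) and Fgfr4 (0.13, adjusted p = 0.869) did not pass.

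In the Notch pathway, a ligand was the member with the widest difference. Dll1 was at 3.79, 4.13 and 3.71 in Pax7High and at 4.69, 5.31 and 5.85 in Pax7Low cells, lower by a difference of -1.40 (SE 0.28, adjusted p = 0.0289). The other measured ligands, Dll4 (0.59, adjusted p = 0.265) and Jag1 (0.58, adjusted p = 0.18), did not pass. No receptor was called: Notch3, which is prominent in satellite cells, was at 6.74, 6.86 and 7.04 against 6.45, 5.76 and 5.78 without overlap (0.88, SE 0.22, adjusted p = 0.085), Notch2 differed by 0.23 (adjusted p = 0.758), and Notch1 was at 6.90, 7.03 and 7.02 against 7.29, 7.4 and 7.34 (-0.36, adjusted p = 0.383). Of 7 measured targets only the repressor gene Snai2 was called, and it was lower (-1.15, SE 0.25, adjusted p = 0.0461). The canonical targets Hes1 (0.03, adjusted p = 0.97), Hey1 (-0.06, adjusted p = 0.933) and Heyl (-0.30, adjusted p = 0.556) did not pass. None of 17 modulators was called. Dll1 and Snai2 were called in 1 of the 6 fits with an array left out (without Pax7Low replicate 1 for Dll1, without Pax7High replicate 3 for Snai2), with adjusted p up to 0.111 and 0.183 in the others.

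Genes of the matrix and its turnover were higher in Pax7High cells where called. Of 44 measured genes of basement membrane and collagens, 6 were called higher and none lower, 39 had a difference above 0 against 53.1% of all genes, and the median was 0.46. Between 36 and 41 stayed above 0 when single arrays were left out. Timp1, the inhibitor of matrix metalloproteinases, was at 8.58, 8.37 and 8.07 against 6.57, 6.04 and 6.24 (2.06, SE 0.21, adjusted p = 0.00112). Thbs1, thrombospondin 1, was at 8.59, 8.64 and 8.05 against 7.02, 7.09 and 6.93 (1.41, SE 0.21, adjusted p = 0.00805). Lama3, a laminin chain (1.21, adjusted p = 0.0196), and the proteases Adamts5 (1.10, adjusted p = 0.0228) and Adamts1 with Timp3, the 4 other called members, followed with smaller differences of at least 1.00. Lama3 lost the call without Pax7High replicates 2 and 3 and Pax7Low replicates 2 and 3, and Adamts5 without each array but Pax7Low replicate 1 (adjusted p up to 0.0945 and 0.107).

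Signalling genes with the same direction included Ccn2, a matrix protein induced by TGF-beta and YAP, at 10.24, 10.08 and 10.33 against 8.29, 7.6 and 8.55 (2.07, SE 0.25, adjusted p = 0.00226). Bmp6, a bone morphogenetic protein (1.38, SE 0.22, adjusted p = 0.0119), and the ligand Tgfb2 (1.06, SE 0.18, adjusted p = 0.0147) were also higher, so that 3 of 25 Wnt and TGF-beta targets were called, all higher, with a median of 0.15. Bmp6 lost the call without Pax7Low replicates 2 and 3 and Tgfb2 without these and Pax7High replicates 2 and 3. Igfbp5, which binds insulin-like growth factors, was at 9.01, 9.27 and 9.32 against 7.63, 7.19 and 7.30 (1.83, SE 0.20, adjusted p = 0.00132) and was the 1 called of 30 growth factor receptors and feedback genes, whose median was 0.19. The called genes that act on retinoids were Cyp26a1, which degrades retinoic acid (1.30, SE 0.27, adjusted p = 0.0386), and the alcohol dehydrogenase Adh1 (1.19, SE 0.26, adjusted p = 0.043), out of 19 measured with a median of 0.12. Cyp26a1 was called in 1 fit with an array left out, that without Pax7High replicate 3, and Adh1 in none (adjusted p up to 0.162 and 0.156).

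With predicted genes, clone names and small RNAs left out, the 12 genes with the widest differences among those called higher came from several functions. Cxcl3, a chemokine for neutrophils, was at 7.73, 7.16 and 6.69 against 4.75, 4.38 and 4.03 (2.81, SE 0.28, adjusted p = 0.00083). The prostaglandin transporter Slco2a1 was at 8.68, 8.37 and 7.56 against 6.58, 5.35 and 6.41 (2.09, SE 0.35, adjusted p = 0.0144), and the sialidase Neu2 was at 7.36, 7.63 and 6.71 against 5.44, 5.27 and 4.83 (2.05, SE 0.26, adjusted p = 0.00392). Each fraction kept to its own range in all 3. Osmr was at 8.58, 8.74 and 8.83 against 6.94, 6.48 and 7.08 (1.89, SE 0.21, adjusted p = 0.0014), and the amino acid transporter Slc7a8 at 7.44, 7.51 and 7.47 against 5.71, 5.66 and 5.54 (1.84, SE 0.17, adjusted p = 0.00078). Thrombomodulin (Thbd, 1.93, adjusted p = 0.00603), Tmtc2 (1.95, adjusted p = 0.00183), the cytokine receptor subunit Csf2rb2 (2.03, adjusted p = 0.0318) and lysyl oxidase (Lox, 1.84, adjusted p = 0.0185) made up the rest of the 12. Slco2a1 lost the call without Pax7High replicate 2 (adjusted p = 0.0585, the highest of these fits) and without Pax7Low replicate 2 (difference 1.71), and Csf2rb2 and Lox without Pax7High replicates 1 and 2 and Pax7Low replicates 2 and 3 (adjusted p up to 0.134 and 0.0919).

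In energy metabolism, most genes of mitochondrial respiration had small differences below 0, of which few passed the test one by one. Of 72 measured genes of the respiratory chain and ATP synthase, 70 had a difference below 0, against 46.9% of all genes, with a median of -0.52. For 57 the Pax7High arrays lay wholly below the Pax7Low arrays, against 9.02% of all genes. Only Ndufb5, a subunit of complex I, was called, at 6.93, 7.10 and 7.29 against 7.86, 8.0 and 8.08 (-0.87, SE 0.19, adjusted p = 0.0407). With single arrays left out, between 69 and 71 members had a difference below 0, the median lay between -0.65 and -0.43, and between 0 and 8 were called (Ndufb5 itself in none of these fits, with adjusted p up to 0.164). In the tricarboxylic acid cycle, 17 of 19 had a difference below 0, and the median was -0.52. Called lower were 3, against 0.933% of all genes: Sdhd of succinate dehydrogenase (-1.13, adjusted p = 0.0395), fumarase (Fh1, -1.13, adjusted p = 0.0344) and Suclg1 of succinyl-CoA ligase (-1.06, adjusted p = 0.0377). These 3 were called in 1 fit with an array left out, that without Pax7Low replicate 1, and reached adjusted p of 0.161, 0.147 and 0.14 in the others. The mean of the fibre markers moved with these lists (4.77 to 4.86 against 5.14 to 5.49), and its part in them was not tested.

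Fatty acid genes were mixed. The uptake protein Cd36 was at 7.30, 8.0 and 7.87 against 6.12, 6.66 and 6.77, higher by 1.21 (SE 0.25, adjusted p = 0.034), and Acadl, a dehydrogenase of mitochondrial beta-oxidation, was at 6.61, 6.98 and 7.22 against 7.66, 8.01 and 8.38, lower (-1.08, SE 0.24, adjusted p = 0.0459). Out of 22 measured genes of mitochondrial fatty acid oxidation, 18 had a difference below 0, against 46.9% of all genes, and the median was -0.39. For 21 peroxisomal genes the median was -0.07 with none called. Glycolysis had none called among 20 (median 0.17), with phosphoglycerate kinase Pgk1 at -1.09 (adjusted p = 0.0622) and the lactate transporter Slc16a1 at 0.85 (adjusted p = 0.11). Pdk2, a kinase that inhibits pyruvate dehydrogenase, was lower (-1.16, SE 0.23, adjusted p = 0.0301) and was the 1 called of 11. Cd36 was called with an array left out in 1 fit (without Pax7High replicate 1), Acadl in 1 (without Pax7Low replicate 1) and Pdk2 in 2 (without Pax7High replicate 1 or Pax7Low replicate 1), with adjusted p up to 0.129, 0.191 and 0.131.

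Against 1.9% of all genes, 3.85% of immediate early and 14.3% of imprinted genes were called. Nr4a1, an orphan nuclear receptor induced within minutes of a stimulus, was at 7.86, 7.97 and 8.27 against 9.13, 9.19 and 9.17 (-1.13, SE 0.19, adjusted p = 0.0138) and was the 1 of 26 immediate early genes called, with a list median of -0.24. None was called among 13 heat shock genes (median 0.36), 24 interferon response genes (median 0.40) or 21 antioxidant genes (median 0.33). Of 21 imprinted genes, 3 were called lower, Cdkn1c, Mest (-1.43, SE 0.31, adjusted p = 0.0466) and Gatm, which makes the precursor of creatine (-1.43, SE 0.31, adjusted p = 0.0459), and the median was 0.21. Of 23 homeobox and positional genes, Six4 and Hoxc9 (-1.09, SE 0.18, adjusted p = 0.0129) were lower, with a median of 0.00. Nr4a1 lost the call without Pax7High replicate 2 or Pax7Low replicate 2 or 3, as did Hoxc9 (adjusted p up to 0.0674 and 0.0676), and Mest and Gatm were called without Pax7Low replicate 1 only (up to 0.186 and 0.188).

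**Figure D3:**
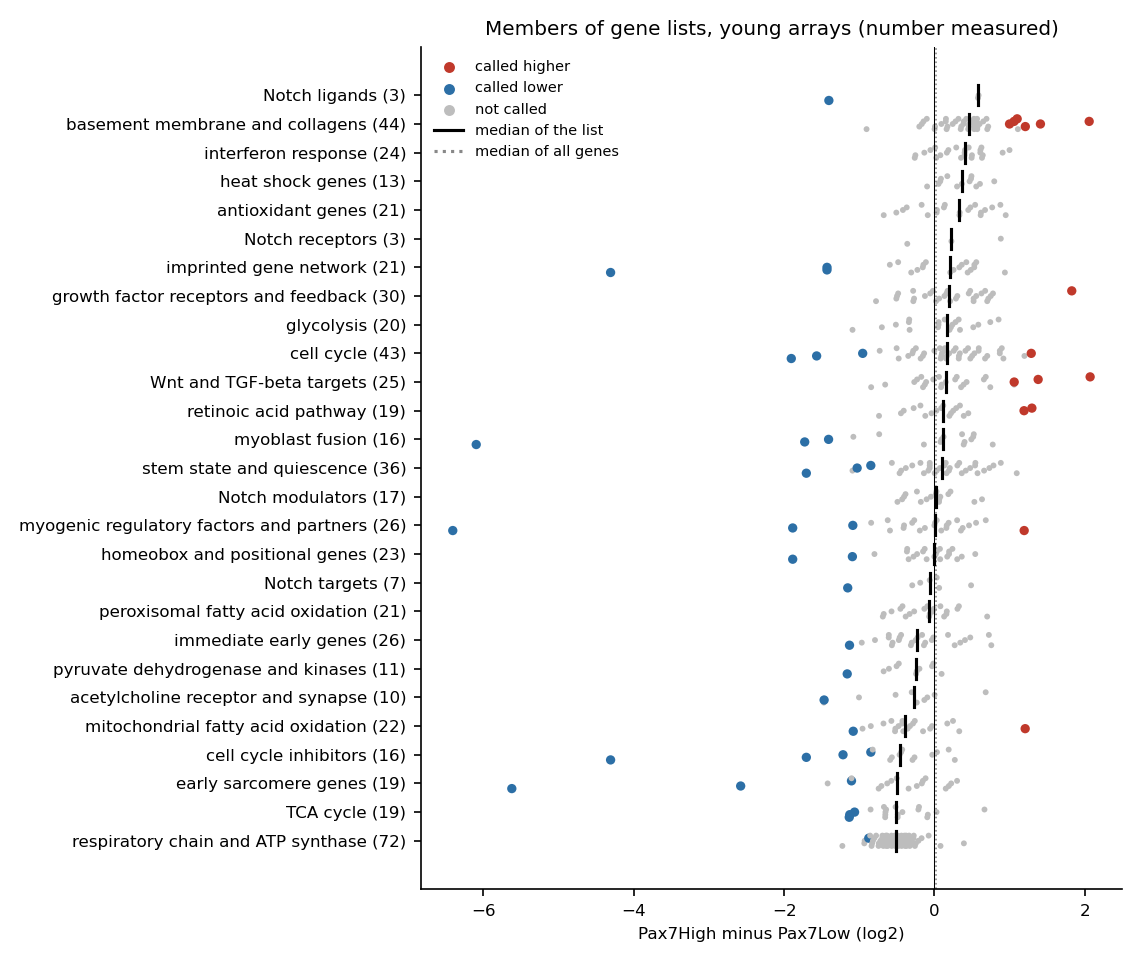
Pax7High minus Pax7Low differences (log2, horizontal axis) of the measured members of each gene list, with the number measured in brackets; red points were called higher, blue points called lower, grey points not called, black bars are list medians and the dotted line is the median of all genes. The respiratory chain (72 genes, median -0.52) lies almost wholly below 0 in a narrow band, while the early sarcomere list (19 genes, median -0.50) spreads down to Actc1 at -5.62.

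Markers of other cells of muscle were read for each array, because the sort named no antibody against them. Over all genes, 53.1% had a difference above 0 and 0.964% were called higher. For 15 endothelial markers, 14 had a difference above 0 and the median was 0.73. Emcn, endomucin, was the only one called, at 5.18, 6.78 and 6.29 against 4.23, 4.34 and 4.92 (1.59, SE 0.36, adjusted p = 0.0496), and was called with an array left out only without Pax7High replicate 1 (up to 0.183). The endothelial cadherin Cdh5 (1.16, adjusted p = 0.151) and Pecam1 (1.00, adjusted p = 0.0933) did not pass. Mean endothelial levels were 5.39 to 6.43 on the Pax7High arrays and 5.0 to 5.39 on the Pax7Low arrays, where Pax7High replicate 1 was lowest among the former and just within the Pax7Low range. All 7 tendon markers had a difference above 0 (median 0.67, range of means 5.0 to 5.99 against 4.71 to 4.90), and chondroadherin (Chad, 1.54, SE 0.31, adjusted p = 0.031) was called. It lost the call without Pax7High replicates 2 and 3 and Pax7Low replicates 2 and 3 (up to 0.133). Of 18 markers of fibro-adipogenic cells, 17 had a difference above 0 (median 0.37, means 6.32 to 7.10 against 5.98 to 6.72), Lox was the only one called, and Pdgfra showed 0.29 (adjusted p = 0.768).

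The remaining marker lists overlapped between the fractions. For 12 smooth muscle and pericyte markers the mean was 5.66 to 6.28 in Pax7High and 5.53 to 5.89 in Pax7Low, 8 had a difference above 0 and the median was 0.58. Smooth muscle actin (Acta2) alone was called, and it was lower (-1.65, SE 0.37, adjusted p = 0.0472), and with an array left out the call held only without Pax7Low replicate 1 (adjusted p up to 0.185). For 17 macrophage and monocyte markers the means were 3.69 to 4.31 and 3.51 to 4.98, with C1qa at -0.79 (adjusted p = 0.28) and Cd14 at -0.60 (adjusted p = 0.313). For 10 neutrophil markers they were 4.30 to 4.87 and 3.56 to 4.82, with S100a8 at 7.29, 8.22 and 8.71 against 5.14, 8.40 and 8.47 (0.74, adjusted p = 0.732), so that Pax7Low replicate 1 was lowest. Lcn2 showed 1.12 (adjusted p = 0.421). None of the 7 lymphocyte, 6 Schwann cell and 6 fat cell markers was called, nor was Alas2, the 1 measured marker of red blood cells (0.63, adjusted p = 0.24). The endothelial, tendon, fibro-adipogenic and smooth muscle lists, with medians of 0.37 to 0.73, moved with the matrix genes called higher in Pax7High cells, and their part in that result was not tested.

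**Figure D4:**
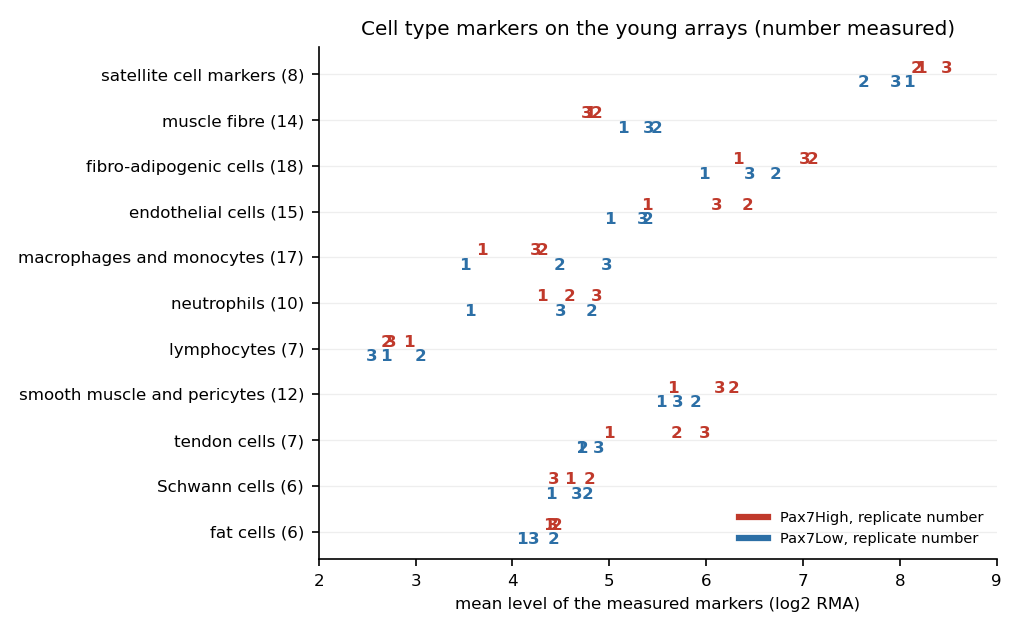
Mean level (log2 RMA, horizontal axis) of the measured markers of each cell type on each young array, with the number of markers in brackets; digits are replicate numbers, red for Pax7High and blue for Pax7Low. The satellite cell markers, at 8.17 to 8.48 and 7.62 to 8.09, and the tendon markers, at 5.0 to 5.99 and 4.71 to 4.90, do not overlap. Nor do the muscle fibre markers, at 4.77 to 4.86 and 5.14 to 5.49, which are lower in Pax7High.

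Small RNAs were covered in part. Of 193 miRNA genes tested, 1 was called, Mir6516, at 4.21, 4.81 and 4.43 against 6.43, 5.46 and 5.89 (-1.44, SE 0.26, adjusted p = 0.0199). Its mature forms in RefSeq, with the seed (bases 2 to 8) in capitals, identify the gene.
mmu-miR-6516-5p: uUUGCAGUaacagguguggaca
mmu-miR-6516-3p: uCAUGUAUgauacugcaaacag
Such a probe set reads transcripts that cross the gene and not the mature form, and Mir206, the muscle miRNA, was at 1.61, 1.43 and 1.63 against 1.39, 1.88 and 4.34, where Pax7Low replicate 3 alone was high (adjusted p = 0.492).

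The last question was whether the difference between fractions was that of old mice. The difference itself was tested in a fit of all 12 arrays, and 3 of 13076 genes were called (0.0229%), Klhl41, Mylk4 and St8sia5, with adjusted p = 0.017 for each. In old mice Klhl41 was at 3.42, 3.49 and 3.51 in Pax7High and 3.25, 3.02 and 4.59 in Pax7Low cells, a difference of -0.15 against -4.41 in young mice. Mylk4 was at 2.41, 2.44 and 2.74 against 2.80, 2.53 and 2.58 (-0.11, against -3.99), and St8sia5 at 3.18, 2.85 and 2.96 against 3.15, 3.00 and 3.09 (-0.08, against -3.40). For these 3 genes every young Pax7Low array lay above all arrays of the other groups. Among those other arrays, Old Pax7Low replicate 3 stood out for Klhl41 at 4.59. None passed without Old Pax7High replicate 1, Old Pax7Low replicate 1, Young Pax7Low replicate 3 or any 1 of the Young Pax7High arrays, where limma called 0 genes. Of the 3 genes, 1 passed without Old Pax7High replicate 3, and 2 passed without Old Pax7High replicate 2 or without Young Pax7Low replicate 2. All 3 passed without Old Pax7Low replicate 2 or 3 or Young Pax7Low replicate 1, and 24 genes were called without the last. With the replicate number as a block, 0 genes were called. For Myog the old arrays were at 3.34, 3.57 and 3.80 against 6.43, 3.58 and 6.14, a difference of -1.82, and the interaction did not pass (adjusted p = 0.098). Old Pax7Low replicate 2 was as low as the old Pax7High arrays. Mymk (-2.73 in old mice, interaction adjusted p = 0.219) and Actc1 (-1.35, interaction adjusted p = 0.098) did not pass either. The study describes amplification of RNA for old samples and does not say how the young RNA was prepared, so that age and preparation cannot be told apart.

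**Figure D5:**
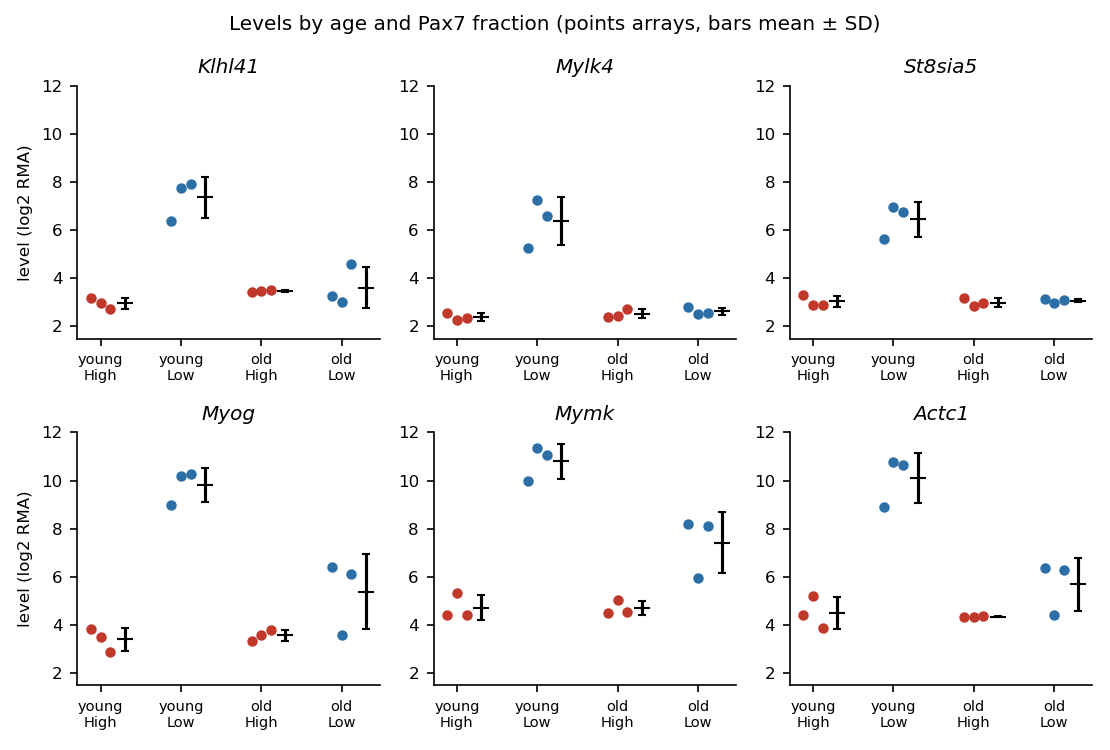
Levels (log2 RMA, vertical axis) of 6 genes in young and old Pax7High (red) and Pax7Low (blue) cells; points are arrays and bars give the mean and SD of 3 arrays. Klhl41, Mylk4 and St8sia5, with a called interaction, are highest on the young Pax7Low arrays, and Klhl41 also reaches 4.59 on old Pax7Low replicate 3. For Myog, Mymk and Actc1, whose interaction did not pass, old Pax7Low replicate 2 is the lowest of the old Pax7Low arrays.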

How the data were processed

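Satellite cells sorted by FACS were profiled on Affymetrix Mouse Gene 1.0 ST arrays. The authors deposited log2 values made by RMA, which corrects background, equalises the distributions of the arrays and summarises probes per probe set, and they had removed probe sets that were not expressed or did not vary (the sources used here give no threshold for this). The submitters' processing notes name RMA and limma, without version. How far a signal stood over background was not assessed, as no detection call comes with RMA. Young values lay between 0.858 and 12.3.

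Groups and replicate numbers came from the sample titles. Of 18007 probe sets, 14184 had 1 symbol in the platform annotation, 741 several and 3082 none listed, and the last groups were not used. Through Entrez numbers 14136 matched RefSeq, and 0 symbols changed. Of 13076 genes, 635 had over 1 probe set. Levels are not compared between genes.

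The 6 young arrays were fitted with limma 3.58.1 in R 4.3.3 (a two-sided moderated test by lmFit and eBayes, adjusted by Benjamini-Hochberg over 13076 genes, threshold 0.05), without block or filter. The old arrays were left out of this fit because they were known to have a wider spread around their group means. The interaction with age used all 12 arrays, with 1 variance per gene shared by the 4 groups, which can differ in spread. Mylk4, for example, had an SD of 0.15 on the young Pax7High arrays and 1.01 on the young Pax7Low arrays. The fit was tested on simulated data. The members and the 39 gene lists were chosen with earlier results of these data known. Genes were named by rule: the 12 highest and 12 lowest called differences without overlap (predicted genes, clone names and small RNAs left out), up to 4 called members of each list per direction or, with none called, the 2 widest, a fixed set, and any of these with a called interaction; Adamts1, Timp3, Dll4, Jag1, Notch2, Cdh5, Pecam1, Pdgfra and the miRNAs were named after their values were seen. Motifs other than CANNTG and the CArG box, added after the sequences were seen, come with the lists. Alternatives were filters at the 40th and 60th percentile, further quantile normalisation, centring, array weights, the mean of a gene's probe sets, limma-trend (robust), all 12 arrays, a replicate block and each array left out; leaving out arrays for list medians was added after seeing the data.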

Additional observations from a re-analysis of the deposited data

Results flagged for a closer look

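The Pax7High minus Pax7Low difference was compared between young and old mice with an interaction term, and it differed for 3 genes. The young difference minus the old difference was -4.26 for Klhl41 (SE 0.59), -3.88 for Mylk4 (SE 0.52) and -3.32 for St8sia5 (SE 0.43), each with an adjusted p = 0.017 from limma. The number of genes called was 0 without Old Pax7High replicate 1, Old Pax7Low replicate 1, Young Pax7Low replicate 3 or any 1 of the Young Pax7High arrays, 8 without Old Pax7Low replicate 2 and 24 without Young Pax7Low replicate 1. With the replicate block it was 0.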

How the results depend on the processing

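Against 126 genes called higher and 122 lower, other filters, normalisations and the mean of probe sets gave counts within 1.5 times of these. The filter at the 40th percentile kept 60 of the 62 named called genes and removed Ttn and Cyp26a1 for their low levels. That at the 60th percentile kept 54 and also removed Six4, Dll1, Gatm, E2f8, Pdk2 and Lama3. All the genes kept were still called. Limma-trend with robust eBayes gave 206 higher and 182 lower, and all 12 arrays in 1 fit gave 46 and 49; the cause was not tested. With single young arrays left out, counts ran from 28 to 133 higher and from 28 to 179 lower, and for the interaction from 0 to 24. None of the 62 named called genes changed sign in any alternative in which it was tested. In the fit of all 12 arrays, however, 31 of them lost the call. Among these were Slc7a8 (adjusted p = 0.0527) and Thbs1 (adjusted p = 0.101), which were called without each young array in turn. Limma-trend lost 3 calls, and further quantile normalisation and the replicate block 1 each. Among genes not called, the sign turned without 1 array for S100a8 (differences from -0.36 to 1.31), S100b (-1.12 to 0.0269), Pax3 (-0.0696 to 0.18), Calcr (-0.0468 to 0.37), Spry1 (-0.00098 to 0.35), Hey1 (-0.20 to 0.0369), Hes1 (-0.0622 to 0.13), Cdh15 (-0.35 to 0.13), Itga7 (-0.18 to 0.0138) and Fgfr4 (-0.0748 to 0.27).

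With the replicate block, 158 genes were called higher and 162 lower, and 0 for the interaction. The deviations of same-numbered arrays correlated at 0.08, -0.01 and 0.13. Pax7High replicate 1 correlated best with Pax7Low replicate 2 (0.09). With 3 arrays per fraction, these values cannot decide whether same-numbered arrays shared a mouse or a sort.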

Other observations

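Called genes that stood on no list numbered 197 of 248, and the following were chosen after their values were seen. Whether their calls held with an array left out is not given here. Other members of their gene families were not counted, so they describe single genes and not families. Chemokines higher in Pax7High cells beside Cxcl3 were Cxcl1, at 10.18, 9.72 and 9.40 against 8.85, 8.26 and 8.51 (1.23, adjusted p = 0.0293), and Cxcl5, at 5.24, 5.58 and 5.17 against 4.34, 3.55 and 3.65 (1.49, adjusted p = 0.0119). The interleukin 1 receptor Il1r1 was at 9.35, 9.67 and 9.47 against 8.34, 7.65 and 7.61 (1.63, adjusted p = 0.00724), and Tlr4, the receptor of bacterial endotoxin, at 6.72, 6.74 and 6.58 against 5.82, 5.28 and 5.37 (1.19, adjusted p = 0.0144). The urokinase receptor Plaur (1.38, adjusted p = 0.0102) and tissue plasminogen activator Plat (1.53, adjusted p = 0.0115) were higher as well.

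Histone genes H1f1 (1.09, adjusted p = 0.0322), H1f5 (0.86, adjusted p = 0.0412), H2bc14 (1.00, adjusted p = 0.0189) and H2bc18 (0.96, adjusted p = 0.0288) were higher. Nuf2, of the kinetochore, was higher (1.27, adjusted p = 0.00882) and Cks2, a subunit bound to cyclin-dependent kinases, was lower (-1.28, adjusted p = 0.0194). Gamt, which completes creatine synthesis, was at 5.86, 5.48 and 6.08 against 7.28, 8.19 and 7.96 (-2.01, adjusted p = 0.00437), and Trim55 and Lmod2, proteins of the sarcomere, were lower by differences of -2.05 each (adjusted p = 0.00738 and 0.0112). Stac3, which takes part in excitation and contraction coupling, was lower by -1.03 (adjusted p = 0.0377).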
